A study of Mus musculus with 5 samples.

Results

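The circadian clock genes described here are Arntl, Clock, Per1, Per2, Per3, Cry1, Cry2, Nr1d1, Nr1d2 and Dbp, 10 of the 54100 genes in the count table. They were taken by symbol, through their Ensembl identifiers on the mouse genome build GRCm38, and all 10 were found. RNA was sequenced from 5 libraries of the pigmented mouse melanoma line B16F10 after poly(A) selection. Each library was a group of its own. Those of conventional 3D culture (3D culture below), dynamic suspension culture (suspension culture below) and shControl carry the genotype label WT. The others are labelled as knockdown and as overexpression of HIF-1α, the hypoxia-inducible transcription factor encoded by Hif1a. All are labelled as untreated, and the same culture text stands beside all of them: 7 to 10 days of shaking at 60 to 80 rpm, without serum or added growth factors. How the culture methods differed is therefore known from the titles alone. The sources used here do not give the vectors behind the knockdown, overexpression and shControl lines, the number of clones or the hour of harvest. Each library pooled 3 repeats. With 1 library per group there is no replicate spread and no test between conditions. Each comparison is between libraries, with 95% intervals that cover counting error only.

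The mammalian clock is a transcriptional feedback loop. The proteins of Arntl (also called Bmal1) and Clock pair on E-box elements and switch on the Per and Cry genes, whose products return to the nucleus and block that pair. A second loop runs through Nr1d1 and Nr1d2, the genes of the nuclear receptors REV-ERBα and REV-ERBβ, which repress Arntl from ROR elements. Dbp is a direct output of the loop and encodes a factor that acts on D-box elements, among them those of Per genes. In a rhythmic tissue Arntl peaks when Nr1d1 and Dbp are low, and the reverse. Cells in a dish lose their common phase unless they are synchronised, so a bulk level averages over cells at different phases.

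The 3 columns of 3D culture, suspension culture and shControl held estimated counts, judged by the pattern of low values, with sums of 59493240 to 61267892. The libraries labelled knockdown and overexpression held plain counts by the same pattern, with sums of 14803426 and 15393189. On that judgement, comparisons of the latter with shControl cross kinds of values, and kind of values and group cannot be told apart there. Hif1a, the targeted gene, was 541.6 CPM (TMM-scaled counts relative to library size) in 3D culture, 390.5 in suspension culture, 61.3 in the shControl library, 95.1 in the library labelled knockdown and 384 in that labelled overexpression. Hif1a was lowest in shControl, a reference for ratios below. In the library labelled overexpression it was above shControl and the library labelled knockdown but not above either culture method. The library labelled knockdown stood above shControl by a log2 ratio of 0.63 (interval 0.54 to 0.72), against its label. No direction drawn from the library labelled knockdown can thus be read as lower Hif1a. Its column in the table is headed B16F10, the name of the line itself, and that of the library labelled overexpression B16F10Q. Whether the former was the unmodified line cannot be told from the labels. All 10 melanocyte markers looked for (such as Mitf, Tyr and Pmel) were measured, with summed levels of 15439 to 33227 CPM. Of the markers of other cells, 7 of 8 fibroblast, 1 of 8 immune, 1 of 5 endothelial and 0 of 6 epithelial genes averaged at least 1 CPM. In bulk RNA, fewer cells of a type and less RNA per cell cannot be told apart.

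The loop's elements were looked for in RefSeq promoter windows of build GRCm38.p6, which run from 250 bases before a transcription start to 50 after it. Of the 10 genes, 9 matched by symbol, with 13 windows, and Per2 did not. Searched on both strands were the E-box CACGTG, its variant CACGTT, the D-box as TTATGTAA or TTACGTAA, and the ROR core AGGTCA. Of all 32851 mouse windows in the same table, 7.15% held the E-box, 4.68% the variant, 1.06% a D-box and 16.3% the ROR core. Among the clock genes the E-box was in Per1 and Cry1, the variant in Cry1, Cry2 and Nr1d1, the D-box in Per3 and the ROR core in Arntl, Clock, Per1 and Nr1d2. In Arntl the ROR core lay after the start, from base 32, and is not shown. The stretches below are examples of the matches that lay before a start. They are written 5′ to 3′ on the gene's strand with the matched letters in capitals, and none overlaps an annotated exon. A match is a description of the letters and not evidence of binding.
Per1: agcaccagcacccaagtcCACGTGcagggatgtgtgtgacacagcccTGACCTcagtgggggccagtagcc
Cry1: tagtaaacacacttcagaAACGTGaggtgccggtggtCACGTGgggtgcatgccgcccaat
Nr1d1: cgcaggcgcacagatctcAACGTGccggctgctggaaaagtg
Nr1d2: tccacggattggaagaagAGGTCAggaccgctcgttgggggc
Per3: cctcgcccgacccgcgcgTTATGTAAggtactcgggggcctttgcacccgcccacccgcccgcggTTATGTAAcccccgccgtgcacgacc

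The Per1 stretch lies at chr11:69098765-69098835 (plus strand), with the E-box from base -166 and the ROR core, read on the other strand, from base -137, counted from the start as base 1. The Cry1 stretch is chr10:85185091-85185151 (minus strand), with the variant from base -79 and the E-box from base -60. The Nr1d1 stretch is chr11:98775382-98775423 and the Nr1d2 stretch chr14:18239160-18239201, both on the minus strand. The Per3 stretch, chr4:151044798-151044888 on the minus strand, holds the D-box letters at 2 places, from base -205 and from base -158. The shorter string ACGTG, the core of the element bound by HIF-1, is part of the E-box and of its variant, so it came up in the windows of Cry1, Cry2, Nr1d1 and Per1 for that reason. In Dbp it stood alone, from base -227. It was in 19.6% of all windows.

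Dbp and Nr1d1, outputs of the Arntl and Clock pair, had low levels in shControl and in the library labelled knockdown, and higher levels in the other libraries. Dbp (chromosome 7, 45705088 to 45710203, plus strand) was 25.1 CPM in 3D culture, 53.7 in suspension culture, 4.45 in the shControl library, 7.22 in the library labelled knockdown and 78.8 in that labelled overexpression. The counting intervals of these 5 values did not overlap. The log2 ratio of Dbp over shControl was 2.49 in 3D culture (interval 2.31 to 2.69), 3.58 in suspension culture (3.42 to 3.78) and 4.13 in the library labelled overexpression (3.96 to 4.34). Against the library labelled knockdown, the library labelled overexpression stood higher by 3.43 (3.17 to 3.74). Dbp was also the only member beyond 2-fold between the culture methods, 1.09 higher on the log2 scale in suspension culture than in 3D culture (1.00 to 1.19).

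Nr1d1 (chromosome 11, 98767932 to 98775333, minus strand) was 59.9 CPM in 3D culture, 74.7 in suspension culture, 12.5 in the shControl library, 14.6 in the library labelled knockdown and 52.3 in that labelled overexpression. Its log2 ratio over shControl was 2.26 in 3D culture (2.15 to 2.38), 2.58 in suspension culture (2.47 to 2.69) and 2.06 in the library labelled overexpression (1.92 to 2.21). Nr1d2 (chromosome 14, 18204054 to 18239127, minus strand) was 63.0, 107, 35.5, 22.4 and 91.4 CPM in the order 3D culture, suspension culture, shControl, labelled knockdown and labelled overexpression. This was the same split in weaker form. The REV-ERB genes kept their high and low libraries, but Nr1d1 was lowest in shControl and Nr1d2 lowest in the library labelled knockdown. Over shControl the log2 ratio of Nr1d2 was 0.83 in 3D culture, short of 2-fold, 1.59 in suspension culture and 1.36 in the library labelled overexpression. A transcript of another gene matched 1385 bases of Nr1d2 at 96.1% identity. That gene is not in the count table, and whether Nr1d2 reads were lost to it was not tested.

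**Figure D1:**
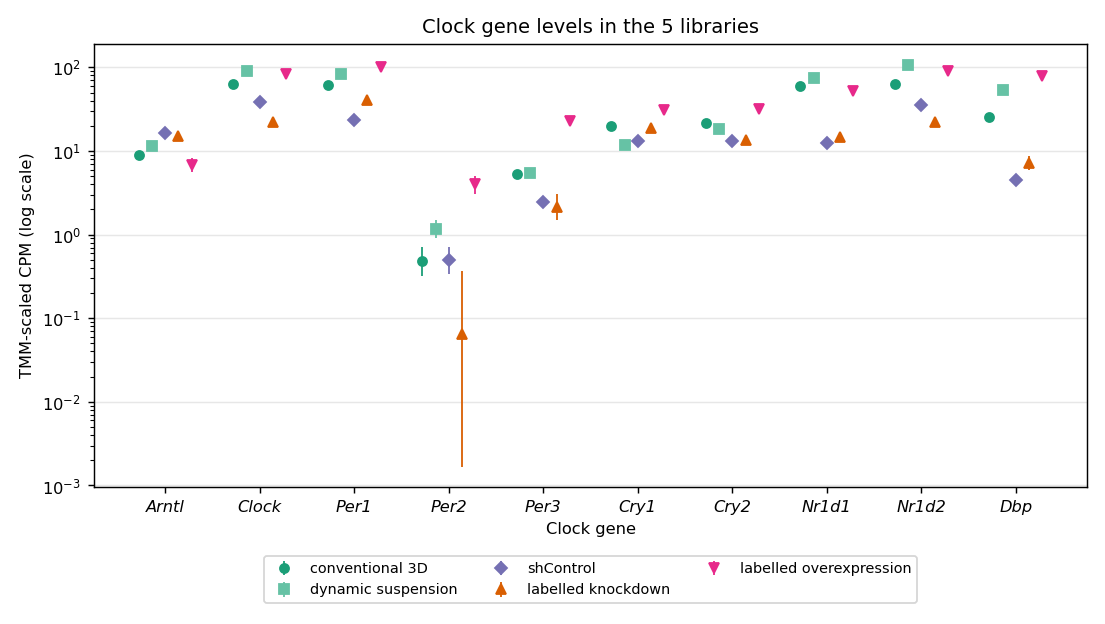
TMM-scaled CPM (vertical log axis) of the 10 clock genes in the 5 libraries, 1 point per library with the exact Poisson 95% counting interval. Arntl runs from 6.85 in the library labelled overexpression to 16.3 in shControl, while Dbp runs the other way, from 4.45 in shControl to 78.8, and Per2 in the library labelled knockdown rests on 1 count.

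Arntl, which REV-ERBα represses, was highest in the libraries where Nr1d1 and Dbp were lowest. Arntl (chromosome 7, 113207465 to 113314126, plus strand) was 8.98 CPM in 3D culture, 11.5 in suspension culture, 16.3 in the shControl library, 15.03 in the library labelled knockdown and 6.85 in that labelled overexpression. The values of shControl and the library labelled knockdown differed by less than counting error, and the library labelled overexpression was lowest. Arntl was lower beyond 2-fold in the library labelled overexpression, by a log2 ratio of -1.24 against shControl (-1.54 to -0.97) and of -1.12 against the library labelled knockdown (-1.47 to -0.80). Over shControl it was -0.85 in 3D culture and -0.50 in suspension culture, both short of 2-fold. With scaling by total counts, the value for 3D culture became -1.11 and passed 2-fold. Among the libraries high in Nr1d1 the order was not reversed: in suspension culture against 3D culture, Arntl stood at 0.36 (0.19 to 0.53), Nr1d1 at 0.32 and Dbp at 1.09.

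Clock (chromosome 5, 76209868 to 76304792, minus strand), whose protein pairs with that of Arntl, did not follow Arntl. It was 63.1 CPM in 3D culture, 89.96 in suspension culture, 38.7 in the shControl library, 22.0 in the library labelled knockdown and 82.4 in that labelled overexpression. Its log2 ratio over shControl was 0.71 in 3D culture (0.63 to 0.78), 1.22 in suspension culture (1.15 to 1.29) and 1.09 in the library labelled overexpression (0.99 to 1.19). Of all pairs of the 10 genes, Clock and Nr1d2 had the most alike profiles over the 5 libraries, with a root mean square distance of 0.13 between their centred log2 levels. Both had nearer genes outside the 10, at a distance of 0.03 from Clock and 0.10 from Nr1d2, so this likeness is not particular to clock genes.

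Because a ratio of 2 genes in the same library does not depend on the scaling, each of the other 9 genes was also set against Arntl, per kilobase of merged exons. All 9 ratios share Arntl, which was itself highest in shControl and the library labelled knockdown. A like split across them is therefore partly built in, and they are not separate observations. Nr1d1 per length was 16.3 times Arntl in 3D culture (14.8 to 17.98), 15.9 times in suspension culture (14.6 to 17.2) and 18.7 times in the library labelled overexpression (15.4 to 22.9). It was 1.88 times Arntl in shControl (1.71 to 2.07) and 2.38 times in the library labelled knockdown (1.97 to 2.88). The intervals of the first 3 libraries overlapped each other, and none reached those of the other libraries. Dbp per length was 7.03, 11.7 and 28.9 times Arntl in 3D culture, suspension culture and the library labelled overexpression, against 0.687 times in shControl and 1.21 times in the library labelled knockdown. The ratio of Cry1 to Arntl did not split the libraries in this way, at 2.28 in suspension culture (2.05 to 2.54) beside 2.79 in the library labelled knockdown (2.34 to 3.34). The ratio of Clock to Arntl ran from 0.802 in the library labelled knockdown to 6.596 in the library labelled overexpression.

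**Figure D2:**
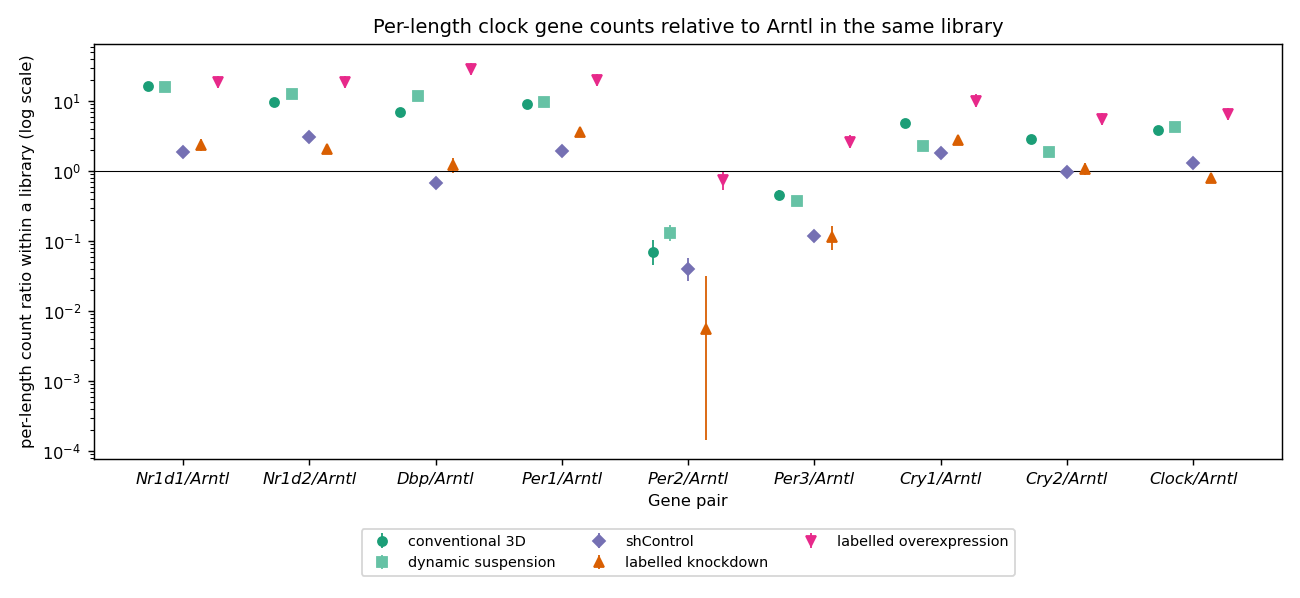
Ratio of a gene's counts per kilobase of exon to those of Arntl in the same library (vertical log axis) for the other 9 clock genes, with the 95% counting interval. In every pair but that of Cry1, shControl and the library labelled knockdown are the lowest points, for Nr1d1 at 1.88 and 2.38 against 15.9 to 18.7 in the other libraries. The pairs share Arntl, which was highest in those libraries, so they are not separate observations. For Per2 the interval of shControl (0.027 to 0.057) overlaps that of 3D culture (0.045 to 0.104).

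The Per genes encode the PERIOD repressors, and Per1 and Per2 also respond directly to signals such as cAMP and glucocorticoids. Per1 (chromosome 11, 69095217 to 69109960, plus strand) was 62.1 CPM in 3D culture, 83.6 in suspension culture, 23.6 in the shControl library, 40.2 in the library labelled knockdown and 102 in that labelled overexpression. All 5 counting intervals were apart. Over shControl its log2 ratio was 1.40 in 3D culture (1.31 to 1.49), 1.83 in suspension culture (1.74 to 1.91) and 2.11 in the library labelled overexpression (2.01 to 2.21). In the library labelled knockdown it was 0.77 above shControl (0.63 to 0.91), short of 2-fold.

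Per3 (chromosome 4, 151003652 to 151044665, minus strand), with the D-box letters shown above, was 5.24 CPM in 3D culture, 5.48 in suspension culture, 2.48 in the shControl library, 2.17 in the library labelled knockdown and 23.0 in that labelled overexpression. The library labelled overexpression stood alone at the top, and neither the values of the culture methods nor those of shControl and the library labelled knockdown differed beyond counting error. The log2 ratio of Per3 in the library labelled overexpression was 3.19 over shControl (2.94 to 3.49) and 3.34 over the library labelled knockdown (2.90 to 3.97). It was 1.07 in 3D culture and 1.13 in suspension culture over shControl. The former fell short of 2-fold with scaling by total counts (0.82).

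Per2 (chromosome 1, 91415982 to 91459324, minus strand) was hardly expressed. It had 26 counts in 3D culture (0.489 CPM), 71 in suspension culture (1.18 CPM), 31 in shControl (0.503 CPM), 1 in the library labelled knockdown and 67 in that labelled overexpression (3.99 CPM). The library labelled overexpression was highest, and 3D culture and shControl differed by less than counting error. Over shControl the log2 ratio of Per2 in the library labelled overexpression was 2.87 (2.35 to 3.65). Against the single count in the library labelled knockdown, the ratio of scaled values was 60.8, with a counting interval of 10.5 to 2436. In the other comparisons Per2 averaged under 1 CPM and was not counted as measured.

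The Cry genes encode the cryptochrome repressors and had the smallest spread besides Arntl. Cry1 (chromosome 10, 85131700 to 85185064, minus strand) was 19.8 CPM in 3D culture, 11.7 in suspension culture, 13.3 in the shControl library, 18.6 in the library labelled knockdown and 31.0 in that labelled overexpression. Cry2 (chromosome 2, 92403646 to 92434043, minus strand) was 21.7, 18.5, 13.1, 13.7 and 32.0 CPM in that order. Both were highest in the library labelled overexpression, with log2 ratios over shControl of 1.21 for Cry1 (1.06 to 1.38) and 1.28 for Cry2 (1.13 to 1.44). Cry1 in the library labelled overexpression was 0.73 above the library labelled knockdown, short of 2-fold. In suspension culture Cry1 had a log2 ratio of -0.76 against 3D culture (-0.90 to -0.62), the lowest of the 10 genes there. Per length, Per2 was the lowest of the 10 genes in all 5 libraries. The highest was Nr1d1 in both culture methods (19.5 and 24.3 CPM per kilobase), Nr1d2 in shControl (6.56), Per1 in the library labelled knockdown (7.14) and Dbp in the library labelled overexpression (26.3).

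Calls beyond 2-fold required an average of 1 CPM or more in the libraries compared, a log2 ratio of 1 or more in size and a counting interval that left out a ratio of 1. The 10 clock genes were chosen with earlier results of these data known, so the shares of all genes beside them are a description only. In the library labelled overexpression against shControl, 9 of the 10 clock genes were higher and 1, Arntl, lower. Of all 12881 genes measured there, 16.1% were higher and 20.1% lower, 36.3% in all. The median log2 ratio of the 10 was 1.71, beside -0.02 over all genes. That comparison crosses kinds of values. Against the library labelled knockdown, which holds the same kind of values, 8 of 10 were higher and Arntl lower, where 17.5% of 12305 genes were higher and 14.8% lower, 32.3% in all. The median of the 10 was 1.86, beside -0.03 over all genes.

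In suspension culture against shControl, 6 of the 9 clock genes measured were higher and 0 lower: Clock, Per1, Per3, Nr1d1, Nr1d2 and Dbp. Of all 12940 genes, 13.8% were higher and 14.9% lower, and the medians were 1.22 for the clock genes and -0.03 over all genes. In 3D culture against shControl 4 of 9 were higher and 0 lower, namely Per1, Per3, Nr1d1 and Dbp, with 14.1% of 12929 genes higher and 14.9% lower and a median of 0.83. With scaling by total counts, which moved all ratios of that comparison by -0.25, the share of higher genes among those called went from 48.6% to 31.8%, and the clock genes stood at 3 higher and 1 lower. These comparisons and that of the library labelled overexpression with shControl share the shControl library. The comparison of 3D culture with shControl and that of the library labelled overexpression with the library labelled knockdown share none, and Per1, Per3, Nr1d1 and Dbp were higher in both. How many of all genes were higher in both was not counted, so this overlap cannot be read as particular to the clock genes.

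**Figure D3:**
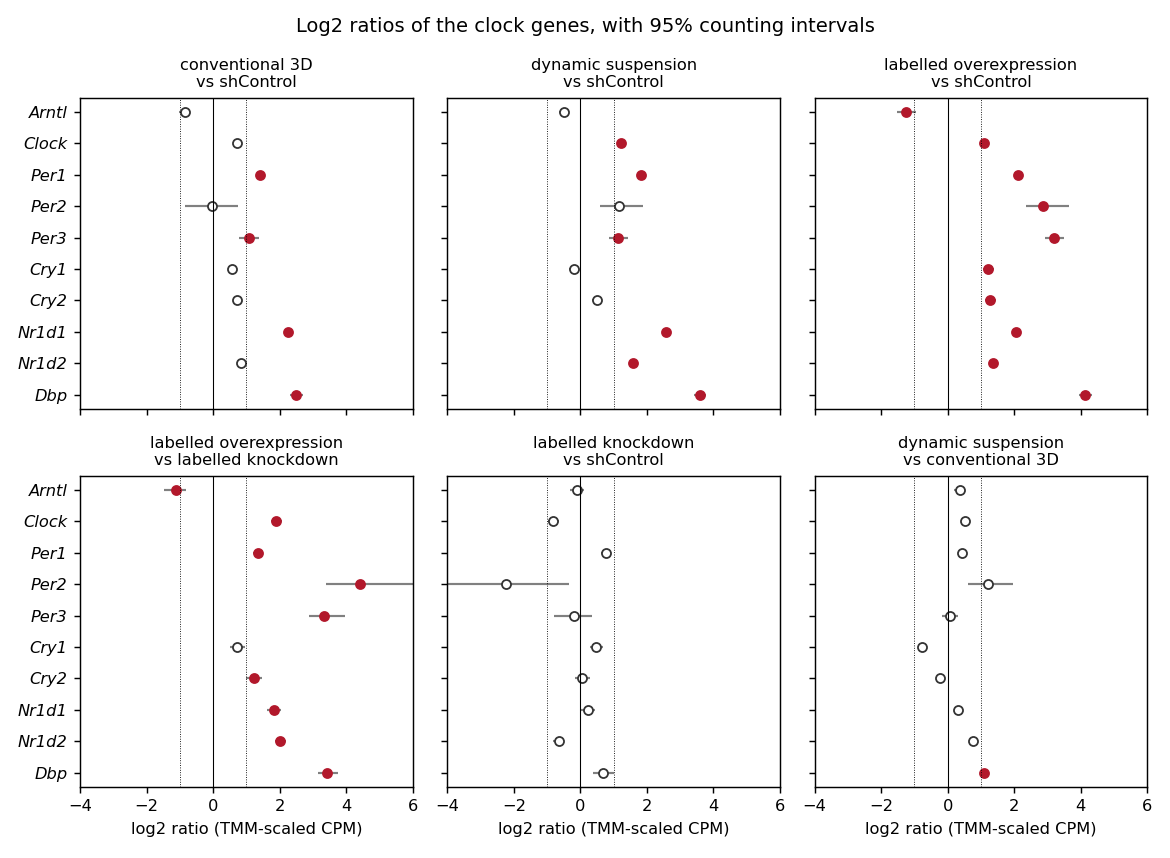
Log2 ratios of the 10 clock genes (horizontal axis) in 6 comparisons, with 95% counting intervals as lines. Filled red points were called beyond 2-fold and open points were not, dotted lines mark 2-fold, and the Per2 intervals against 1 count run past the axis. Red points number 9 higher and 1 lower in the library labelled overexpression against shControl, and 0 for the library labelled knockdown against shControl.

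Between the library labelled knockdown and shControl 0 of 9 measured clock genes were called in either direction, where 8.04% of 12639 genes were higher and 15.6% lower. Their log2 ratios ran from -0.81 for Clock (-0.99 to -0.65) to 0.77 for Per1, with a median of 0.06 beside 0.01 over all genes. Nr1d1 was 0.23 (0.01 to 0.44) and Dbp 0.69 (0.37 to 1.02), Arntl -0.11 (-0.33 to 0.09). The REV-ERB genes thus lay on either side of 0 here, with Nr1d2 at -0.66 (-0.83 to -0.49). Between suspension culture and 3D culture 1 of 9, Dbp, was higher and 0 lower, with 6.47% of 12875 genes higher and 7.68% lower and a clock gene median of 0.36 beside -0.02 over all genes. Scaling by total counts moved the ratios of that comparison by 0.19 and the share of higher genes among those called from 45.7% to 61.3%, and Dbp was still the only clock gene called.

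**Figure D4:**
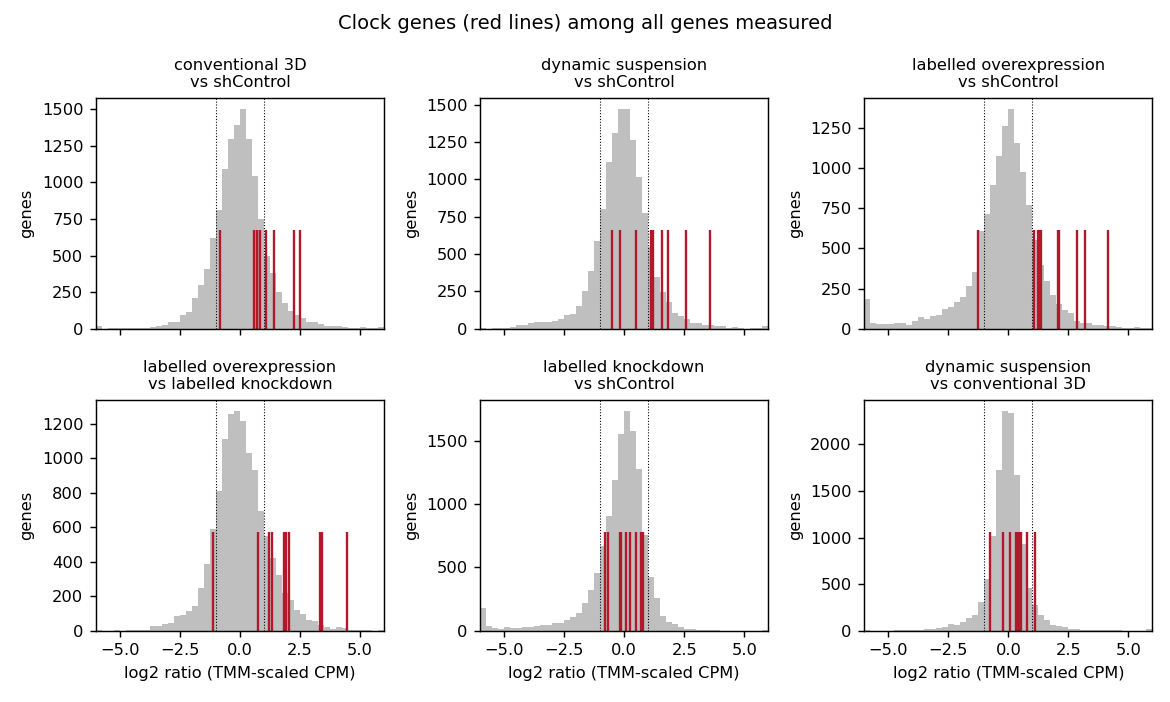
Number of genes (vertical axis) by log2 ratio in bins of 0.25 (horizontal axis) for genes averaging at least 1 CPM in 6 comparisons, with red lines at the measured clock genes and dotted lines at 2-fold. Ratios beyond the axis are in the end bins. Red lines sit mostly to the right of the peak in the library labelled overexpression (medians 1.71 and 1.86 against 2 other libraries) and around it in the library labelled knockdown (median 0.06).

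Other genes of the pathway were taken from a list of 29. Of these, 24 or 25 averaged at least 1 CPM in a given comparison. Their counts of genes higher and lower were 4 and 5 in 3D culture against shControl, 7 and 4 in suspension culture against shControl, and 4 and 5 in the library labelled overexpression against shControl. They were 7 and 6 in the library labelled overexpression against the library labelled knockdown. Between the culture methods they were 3 and 1, and in the library labelled knockdown against shControl 1 and 3. The shares of all genes called in these comparisons are those given above, and in the library labelled overexpression against shControl, for example, 4 and 5 of 25 stand beside 16.1% higher and 20.1% lower. The medians of the list lay between -0.12 and 0.31.

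The ROR receptors activate Arntl from the element that the REV-ERB receptors occupy. Rora was 41.1 CPM in 3D culture, 80.7 in suspension culture, 9.64 in the shControl library, 5.91 in the library labelled knockdown and 43.6 in that labelled overexpression. It was thus high where Arntl was low. The log2 ratio of Rora over shControl was 2.09 in 3D culture, 3.06 in suspension culture and 2.17 in the library labelled overexpression, and it was 2.86 in the last of these over the library labelled knockdown. Rorb had 0 counts in all libraries, which allows at most 0.197 CPM in the shallowest library by a limit of 3 counts.

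Tef and Hlf encode D-box factors of the same family as Dbp. Tef was 251 CPM in 3D culture, 269 in suspension culture, 74.4 in the shControl library, 91.9 in the library labelled knockdown and 368 in that labelled overexpression. Its libraries were ordered like those of Per1 and Dbp, with log2 ratios over shControl of 1.75, 1.85 and 2.31 in 3D culture, suspension culture and the library labelled overexpression. Hlf was 1.63, 7.30, 2.13, 0.722 and 3.10 CPM, highest in suspension culture, where it was 2.13 above 3D culture on the log2 scale (1.82 to 2.51). Nfil3, a repressor that competes with these factors for the D-box, was highest in the library labelled knockdown, at 40.5 CPM against 11.95 in shControl (log2 ratio 1.76, 1.60 to 1.92).

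Of the other repressors, Bhlhe40 and Bhlhe41 encode the DEC factors, which compete for E-boxes and are also known to be induced by low oxygen. Bhlhe40 was 65.8 CPM in 3D culture, 185 in suspension culture, 75.2 in the shControl library, 61.2 in the library labelled knockdown and 76.0 in that labelled overexpression. It was high in suspension culture, by 1.49 on the log2 scale over 3D culture (1.44 to 1.55), and its log2 ratio in the library labelled overexpression over shControl was 0.01 (-0.08 to 0.10). Bhlhe41 was 170, 304, 183, 62.2 and 197 CPM, low in the library labelled knockdown (log2 ratio against shControl -1.56, -1.65 to -1.46). It overlaps an annotated antisense gene. Ciart, a further repressor, was called in the library labelled overexpression (1.34 over shControl and 1.68 over the library labelled knockdown), at 1.96 CPM, and shares sequence with a copy.

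Of the kinases, ligases and cofactors of PER and CRY, 11 were measured in each comparison. Against shControl, 1 was higher and 2 lower in 3D culture as in suspension culture, and 0 higher and 3 lower in the library labelled overexpression. Over all genes, the shares were 14.1% higher and 14.9% lower in 3D culture, 13.8% and 14.9% in suspension culture, and 16.1% and 20.1% in the library labelled overexpression. Csnk1d, the casein kinase 1δ gene, lay between 209 and 255 CPM in all 5 libraries. Gsk3b, a kinase of several clock proteins, was higher over shControl in 3D culture (log2 ratio 1.08) and suspension culture (1.16). Nono, an RNA-binding partner of PER, was lower in the library labelled overexpression, by -1.17 against shControl and -1.31 against the library labelled knockdown. Among the paralogs of the activators, Npas2 had 0 counts in all libraries. Arntl2 was 0.883 CPM in 3D culture, 2.45 in suspension culture, 2.95 in the shControl library, 2.49 in the library labelled knockdown and 4.58 in that labelled overexpression, with a call in 3D culture against shControl (-1.70) and in suspension culture against 3D culture (1.44).

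Timeless, Tipin, Wee1 and Leo1 were each called lower in 3 or more of the 6 comparisons. Timeless, a replication fork protein named for its fly relative in the clock, was 16.9 CPM in 3D culture, 5.94 in suspension culture, 45.9 in the shControl library, 68.7 in the library labelled knockdown and 11.7 in that labelled overexpression. Its partner Tipin was 20.3, 17.7, 77.3, 46.7 and 17.6 CPM. Wee1, a clock-controlled kinase that holds back mitosis, was 23.0, 17.2, 46.7, 66.8 and 25.4 CPM. All were high in shControl and the library labelled knockdown, the reverse of Dbp. Leo1 was lower by -2.05, -1.60 and -2.17 against shControl in 3D culture, suspension culture and the library labelled overexpression. Tspan4 was called in the library labelled overexpression (-1.29 against shControl and -1.69 against the library labelled knockdown). Nampt and Por, metabolic outputs, were higher in suspension culture against shControl (1.01 and 1.24).

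**Figure D5:**
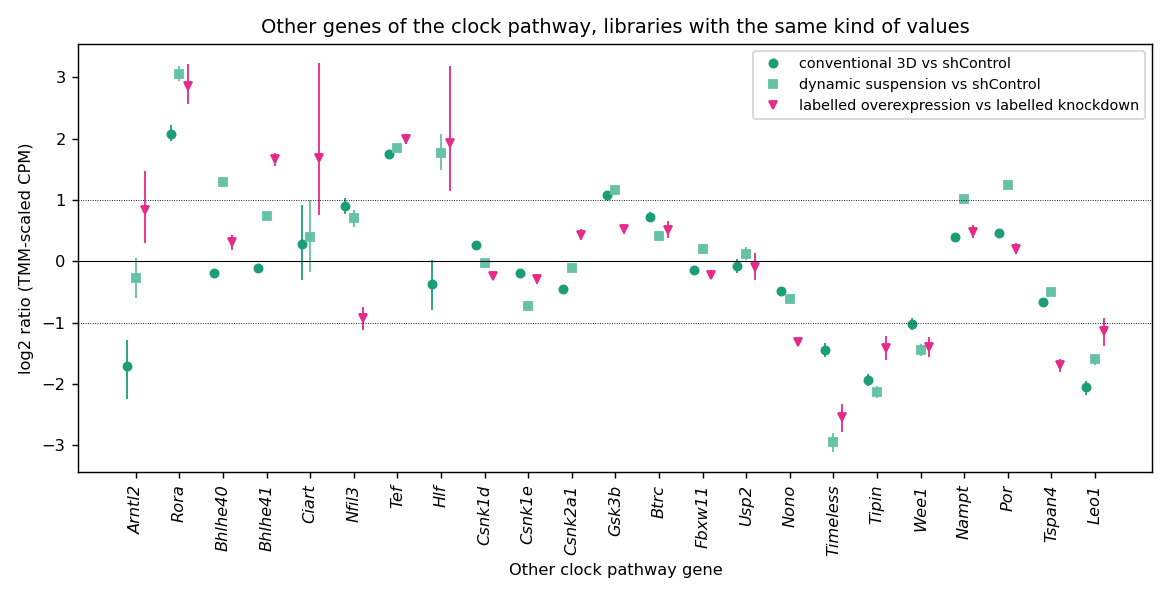
Log2 ratios (vertical axis) of 23 other clock pathway genes in the 3 comparisons of libraries with the same kind of values that set a library against shControl or the library labelled knockdown, with 95% counting intervals and dotted lines at 2-fold. Rora and Tef are above 0 in all 3 (Tef at 1.75 and 1.85 over shControl), and Timeless, Tipin, Wee1 and Leo1 are below it.

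Levels of other gene groups also differed between the libraries, and their part in the result was not tested. The summed level of 10 proliferation genes (Mki67, Top2a, Ccnb1, Ccnb2, Plk1, Cdk1, Aurkb, Bub1, Mcm2 and Mcm5) was 798 CPM in 3D culture, 216 in suspension culture, 2354 in the shControl library, 2569 in the library labelled knockdown and 435 in that labelled overexpression. All 10 were lower beyond 2-fold in 3D culture, suspension culture and the library labelled overexpression against shControl, and in the last against the library labelled knockdown. Of all genes, 14.9%, 14.9%, 20.1% and 14.8% were lower in these comparisons. The order of the proliferation genes was the reverse of that of Dbp in respect of which libraries were high. Suspension culture was however lowest for proliferation and the library labelled overexpression highest for Dbp. The 10 hypoxia-response genes summed to 4144, 6802, 3146, 4927 and 4467 CPM, highest in suspension culture, and immediate early genes to 234, 375, 129, 212 and 272 CPM. Of both lists, the summed level in the library labelled knockdown was above that in shControl. The immediate early genes were mixed in 3D culture against shControl, with 3 higher and 1 lower beyond 2-fold of 7 measured, beside 14.1% and 14.9% of all genes. In suspension culture against shControl 6 of 8 were higher and 0 lower, beside 13.8% and 14.9%. In the library labelled overexpression against shControl 4 of 7 were higher and 0 lower, beside 16.1% and 20.1%. Against the library labelled knockdown, the library labelled overexpression had 2 higher and 1 lower of 7, beside 17.5% and 14.8%. Most of the hypoxia sum was Ldha and Pgk1. In the library labelled overexpression against that labelled knockdown, where the sum was the lower, 4 of 10 were higher and 0 lower (median log2 ratio 0.50). The shares of all genes there were 17.5% and 14.8%. Hypoxia genes higher over shControl were 4 of 9 in 3D culture, 9 of 10 in suspension culture and 5 of 9 in the library labelled overexpression. In the library labelled knockdown they were 2 of 9, and 0 were lower in each. Of all genes, 14.1%, 13.8%, 16.1% and 8.04% were higher in these comparisons. The immune markers summed to 14.5, 13.5, 3.80, 1.25 and 8.75 CPM. This was nearly all Cd68, a lysosomal protein, at 12.4, 13.2, 3.56, 0.788 and 8.40 CPM, while Cd3e and Itgam were at 0 counts and Ptprc at 0.150 CPM or less. Fibroblast markers summed to 135, 46.4, 46.4, 39.9 and 17.0 CPM, an order that differs from those of the clock genes. Single genes of that list went opposite ways. Pdgfrb was 7.48 CPM in 3D culture and 24.6 in the library labelled knockdown, where Col3a1 was 45.3 and 0.07.

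Nr1d1 and Dbp each overlap an exon of a gene on the opposite strand. The libraries were strand-specific, but whether the counting used the strand is unknown from the sources used here. Of the 3077 exon bases of Nr1d1, 8.55% overlap the thyroid hormone receptor gene Thra. Thra was 63.9, 60.2, 21.2, 43.6 and 70.4 CPM in 3D culture, suspension culture, shControl, the library labelled knockdown and the library labelled overexpression. Like Nr1d1, Thra was higher in 3D culture, suspension culture and the library labelled overexpression than in shControl. In the last of these its log2 ratio over shControl was 1.73 (1.62 to 1.85), beside 2.06 for Nr1d1. In the library labelled knockdown Thra was 1.04 above shControl on the log2 scale (0.90 to 1.18) where Nr1d1 was 0.23. Whether Thra reads entered the Nr1d1 counts was not tested. Of the 2993 exon bases of Dbp, 539 overlap Sphk2, which lay between 29.5 and 44.0 CPM in the 5 libraries. The lowest Dbp values were below these, at 4.45 CPM in shControl and 7.22 in the library labelled knockdown. Whether Sphk2 reads entered the Dbp counts was not tested, and the low Dbp values and the ratios over them are the most exposed to it. Cry2 and Arntl overlap antisense genes over 4.67% and 0.439% of their exons, and those genes stood at no more than 1.03 and 0 CPM.

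The protein-coding genes most like the 3 members of widest range were found by the root mean square distance of centred log2 levels over the 5 libraries, among about 9180 genes averaging at least 10 CPM. For Dbp they were Fbxo2 (distance 0.43; 50.7, 60.0, 8.09, 16.4 and 88.4 CPM in the order used above), Hist1h1c (0.51) and Zbtb4 (0.52). For Per3 they were Zcchc7 (0.38), Abca5 (0.39) and Hspa1b (0.39). For Per2 they were Eno2 (0.70), Gm20661 (0.76) and Zcchc7 (0.76), at distances that rest on the 1 count of Per2 in the library labelled knockdown. These are likenesses over 5 libraries only.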

How the data were processed

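The deposited values of conventional 3D culture, dynamic suspension and shControl are estimated counts by their pattern, with 27.9% to 30.1% of the values from 1 to 20 being multiples of 4. By the same pattern, those of the library labelled knockdown (15.2%) and the library labelled overexpression (16.4%) are plain counts. This split is a judgement from the low values. GRCm38.p6 and mm10 are the builds, and StringTie, HISAT2 and cutadapt the tools, per the submitters' processing notes. The counting program is not given in the sources used here. Columns were assigned by the sample descriptions, with 0 unused. All 54100 identifiers matched GENCODE M21.

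Libraries were scaled by TMM factors over all 5 libraries (edgeR 4.0.16, R 4.3.3). Log2 ratios used a prior count of 2. Intervals are Clopper-Pearson for a ratio and exact Poisson for a level, at 95%; they cover counting error only and are approximate for estimated counts. No test between conditions was run. Ratios and calls were tested on simulated data. Shared sequence means a blastn 2.17.0 match of at least 150 bases at 95% identity in another gene's transcripts. Members and lists were chosen with earlier results of these data known. The genes named are the 10 members, those of the 29 pathway genes called in a comparison or described with their group, the 3 most alike genes of the 3 members of widest range, and Hif1a. Beyond that rule, Csnk1d, Npas2 and Rorb and the overlapping genes Thra and Sphk2 were named after their values were seen. Alternatives were scaling by total counts or DESeq2 1.42.0 size factors, TMM from protein-coding genes without exon overlap, a prior of 0.5, other filters and a 1.5-fold threshold. TMM within libraries of one kind of values was added after the data were seen. Some items named by the rule are not reported here.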

Additional observations from a re-analysis of the deposited data

How the results depend on the processing

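Across the alternatives, the higher or lower calls of the clock genes in the library labelled overexpression stayed within 1.5 times of the reported counts. Of the log2 ratios of single clock genes recomputed under the scaling and prior alternatives, including TMM within libraries of one kind, 277 kept their direction and side of 2-fold and 3 did not. The latter were Per3 (0.82) and Arntl (-1.11) in conventional 3D culture against shControl under total counts, and Cry2 in the library labelled knockdown against shControl, which turned to -0.046 with TMM from protein-coding genes without exon overlap and was not called either way. The cause was not tested. Without the filter on low values, which lets in Per2, 2 clock genes were called between the culture methods and 1 between the library labelled knockdown and shControl. At a 1.5-fold threshold 3 were called between the culture methods, 4 between the library labelled knockdown and shControl, and 8 in conventional 3D culture against shControl. Over all genes, the counts called beyond 2-fold, in the order dynamic suspension against conventional 3D, labelled knockdown, labelled overexpression, conventional 3D and dynamic suspension each against shControl, were 844, 1551, 2782, 2288 and 2338 with a minimum of 10 CPM, since fewer genes are tested. They were 4711, 4922, 7438, 6991 and 6804 with no filter, and 4013, 5734, 7329, 6640 and 6641 at 1.5-fold. For the library labelled overexpression against the library labelled knockdown they were 2557 with a minimum of 10 CPM and 6681 at 1.5-fold. No paired analysis was possible because each group has 1 library and the labels give no replicate numbers. Depth limits Per2 most, which had 1 to 71 counts.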
